A study of Mus musculus with 8 samples.

Results

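The Notch pathway was described here through 10 genes: the receptors Notch1, Notch2 and Notch3, the ligands Jag1, Jag2 and Dll1, and the target genes Hes1, Hey1, Heyl and Nrarp. They were chosen by name as core members of the pathway, each read by its 1 probe set with exactly 1 gene symbol, and are 10 of 19938 genes measured on 8 mouse Affymetrix MoGene ST arrays. The arrays form 4 groups of 2. MBA-15 is a stromal line of pre-osteoblastic character, and DA3 is a mammary adenocarcinoma line. By the labels, each was grown alone in serum-containing medium, or both together with DA3 cells seeded onto an attached MBA-15 layer. Magnetic particles that bind EpCAM, a surface protein of epithelial cells, divided the cells into an EpCAM-negative MBA-15 fraction and an EpCAM-positive DA3 fraction. The 2 fractions are called MBA-15 co-culture and DA3 co-culture, and the controls DA3 alone and MBA-15 alone, all described as 24 h, with no genetic change or drug named in any of them. Each line is a single established line, so a difference between the groups of 2 lines is a difference between these lines, and the labels do not state whether arrays of 1 group derive from different cultures. The p-values therefore measure only the spread between these arrays, which may be technical.

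Notch receptors sit in the membrane and are switched on by ligands of the Jagged and Delta families on a touching cell. Binding lets an ADAM protease and then gamma-secretase cut the receptor, and the freed intracellular part joins the DNA-binding protein RBPJ and Mastermind proteins to turn on targets such as the Hes and Hey repressors and Nrarp, which feeds back to limit the signal. In breast cancer that spreads to bone, Jagged1 on the carcinoma cells is known as a ligand for Notch on cells of the bone.

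The RBPJ complex reads a core that is written TGGGAA, and promoter sequences are shown to let this core be looked for in genes whose levels are described here. In RefSeq promoter windows of 300 bases on GRCm38.p6, which run from 250 bases before to 50 after a gene's start, 25.6% of all 32851 windows held TGGGAA on either strand and 6.38% held the longer GTGGGAA, which contains it. The table held 7 of the 10 genes, in 8 windows since Dll1 has 2, and 0 of these 8 held either motif. Hes1, Hey1 and Heyl were not among them. Among 45 other measured genes of the pathway, 37 had a window, and 14 of their 50 windows, belonging to 13 genes, held TGGGAA. The 250 bases before the start are printed for Notch1, the receptor that was higher in the MBA-15 fraction, for Jag1 and Nrarp, the ligand and the target with the largest difference towards the DA3 fraction, and for the target gene Hes5, which shows what a match looks like. Capitals mark TGGGAA or its reverse complement, which only Hes5 of these 4 holds, beginning 226 and 82 bases before its start. The Notch1 window is chr2:26503823-26504072 on the minus strand, the Jag1 window chr2:137116521-137116770 on the minus strand, the Nrarp window chr2:25180508-25180757 on the plus strand and the Hes5 window chr4:154960673-154960922 on the plus strand.
Notch1: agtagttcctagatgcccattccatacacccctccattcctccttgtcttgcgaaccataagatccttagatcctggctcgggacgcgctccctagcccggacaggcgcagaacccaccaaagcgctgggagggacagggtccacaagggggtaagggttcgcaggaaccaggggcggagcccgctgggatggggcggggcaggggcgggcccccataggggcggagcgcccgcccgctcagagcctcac
Jag1: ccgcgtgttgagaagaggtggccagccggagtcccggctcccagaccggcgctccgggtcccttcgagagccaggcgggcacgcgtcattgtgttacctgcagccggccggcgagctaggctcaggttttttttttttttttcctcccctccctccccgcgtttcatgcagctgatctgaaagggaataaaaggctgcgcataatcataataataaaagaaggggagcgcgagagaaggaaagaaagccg
Nrarp: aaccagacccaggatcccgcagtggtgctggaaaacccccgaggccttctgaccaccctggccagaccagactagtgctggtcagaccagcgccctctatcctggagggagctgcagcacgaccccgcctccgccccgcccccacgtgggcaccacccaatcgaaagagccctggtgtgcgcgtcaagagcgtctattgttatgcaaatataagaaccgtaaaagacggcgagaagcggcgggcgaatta
Hes5: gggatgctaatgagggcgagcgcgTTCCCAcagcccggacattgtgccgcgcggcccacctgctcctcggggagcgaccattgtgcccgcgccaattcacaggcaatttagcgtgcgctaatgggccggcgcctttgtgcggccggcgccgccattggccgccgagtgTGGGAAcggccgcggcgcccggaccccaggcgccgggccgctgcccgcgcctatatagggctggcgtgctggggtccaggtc
All 4 stretches are rich in G and C, with 66.0, 57.2, 61.2 and 71.6% of their bases against a median of 52.4% over all windows cut to the same 250 bases. A match is only a run of letters, and its absence says nothing about binding by RBPJ elsewhere.

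Levels are log2 expression values, so that 1 unit is a doubling, and levels of different genes cannot be set against each other because each has its own probes. Array medians lay between 4.48 and 4.64, and 14 measured genes of tissues that are absent here, such as albumin of the liver, read 3.24 to 4.59, which serves as a rough guide to background. The 12 epithelial markers averaged 5.12 to 5.25 per array for MBA-15 co-culture, 9.46 to 9.53 for DA3 alone and 8.97 to 9.41 for DA3 co-culture, yet 8.34 to 8.79 for the group labelled MBA-15 alone. Epcam itself, the gene of the separation, read 5.58 and 5.19 after co-culture in MBA-15 and 8.45 and 9.25 in the group labelled MBA-15 alone. The 14 stromal markers averaged 8.26 to 8.32 per array in that group, 8.23 to 8.86 for MBA-15 co-culture and 5.74 to 5.85 for DA3 alone. The arrays of that group thus carry both stromal and epithelial markers at a high level, which goes against their title. They are called labelled MBA-15 alone throughout. Their descriptions hold the word mix, and what was mixed is not stated. If linear values are placed on a scale that starts at the mean of MBA-15 co-culture and ends, at 100%, at that of DA3 alone, the median epithelial marker stood at 43.6% on array 1 and 59.3% on array 2 labelled MBA-15 alone. For the 14 stromal markers, counted from DA3 alone, DA3 co-culture arrays 1 and 2 stood at 20.5% and 5.01% of the way. The 8 endothelial markers, another cell type rich in Notch genes, were under the array median on all 8 arrays. Of 8 osteoblast markers 4 were measured, with array means of 3.92 to 4.48 over all groups, in the range of background. Of these 4, Alpl read 5.05 and 4.28 in the MBA-15 fraction, and 4.98 and 4.05 in the group labelled MBA-15 alone, above the guide genes on 1 array of each, and 3.65 to 4.13 on the DA3 arrays.

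**Figure D1:**
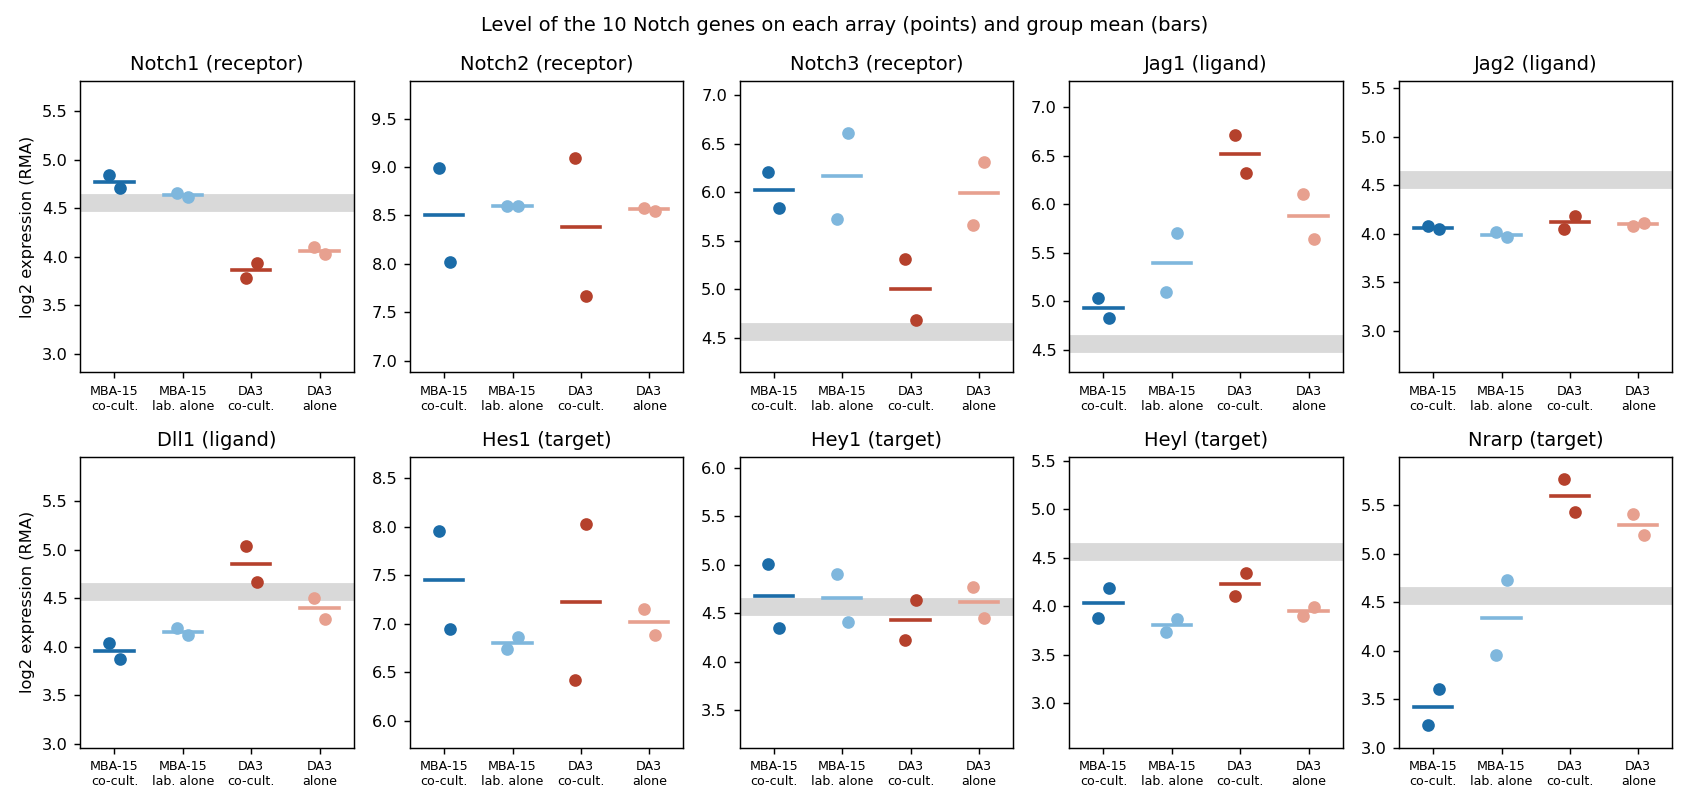
Log2 expression (y axis, 3 units in every panel) of the 10 Notch genes on each array (points, replicate 1 left and replicate 2 right) in the 4 groups, with group means as bars and the range of array medians as a grey band. Notch1 is higher on the 4 arrays labelled MBA-15, Jag1, Dll1 and Nrarp are highest in DA3 co-culture, and Jag2 and Heyl lie under the band on all 8 arrays.

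The first comparison set the 2 fractions of the co-culture against each other, with 1 array of each in assay number 3 and the others in assays 4 and 5, to ask which cells carried the receptors, the ligands and the target genes. Notch1 was higher in the MBA-15 fraction, and Jag1, Dll1 and Nrarp were higher in the DA3 fraction. In RNA of whole fractions, fewer cells that express a gene and less RNA per cell cannot be told apart. These 4 of the 10 genes passed in limma at a Benjamini-Hochberg adjusted p under 0.05, where 12.8% of all genes passed (8.28% higher and 4.48% lower in MBA-15). An unadjusted p under 0.05 was reached by 5 of the 10 and by 27.6% of all genes. The median difference of the 10 genes was 0.03 against -0.07 for all genes, and the median absolute difference 0.57 against 0.26. The arrays of the 2 fractions did not overlap for these 4 genes and for Notch3, with 2 genes higher and 3 lower in MBA-15, where 23.3% and 31.9% of all genes did not overlap in these directions.

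Among the receptors, Notch1 (probe set 10481056) read 4.84 and 4.71 in the MBA-15 fraction, 3.79 and 3.94 in the DA3 fraction, 4.10 and 4.03 for DA3 alone, and 4.66 and 4.62 in the group labelled MBA-15 alone. All 4 arrays labelled MBA-15 lay above all 4 DA3 arrays, and the DA3 values lay under every array median and in the range of the guide to background. The MBA-15 values were themselves only a little above their array medians and the highest guide value of 4.59. The difference was 0.91 ± 0.12 log2 units (SE, limma, adjusted p = 0.00565), or 1.88-fold, a fold that low DA3 values may understate. With only the arrays of the 2 fractions in the fit it missed the threshold (adjusted p = 0.0544). Notch2 (probe set 10494595) was well above the array medians everywhere, at 8.99 and 8.02 for MBA-15 co-culture, 9.10 and 7.67 for DA3 co-culture, 8.60 and 8.60 in the group labelled MBA-15 alone, and 8.58 and 8.55 for DA3 alone. Its arrays overlapped between the fractions, and the difference of 0.12 ± 0.49 did not pass (adjusted p = 0.899), with a 95% interval from -1.04 to 1.28. The gap of 1.42 between the 2 DA3 co-culture arrays was exceeded by 1.53% of all genes. Notch3 (probe set 10449775), known as a receptor of mural and mesenchymal cells, read 6.21 and 5.84 in the MBA-15 fraction, 5.31 and 4.68 in the DA3 fraction, and 5.72 and 6.61 in the group labelled MBA-15 alone. The difference of 1.03 ± 0.38 did not pass (limma, adjusted p = 0.138). It was DA3 co-culture that stood low, since DA3 alone read 5.67 and 6.31, and with DA3 alone in its place the difference was 0.04 (adjusted p = 0.979).

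Among the ligands, Jag1 (probe set 10488060) read 6.71 and 6.32 in DA3 co-culture and 5.04 and 4.83 in MBA-15 co-culture. The difference was -1.58 ± 0.27, higher in DA3 (limma, adjusted p = 0.012). Dll1 (probe set 10448034), a Delta-family ligand, read 5.04 and 4.66 in DA3 co-culture against 4.04 and 3.88 in MBA-15 co-culture. Its difference was -0.89 ± 0.17, or 1.86-fold (limma, adjusted p = 0.0183), which may be understated, since the MBA-15 values lay in the range of background. Jag2 (probe set 10402808) stayed between 3.96 and 4.19 on all 8 arrays, under every array median, so that no level of this ligand was told from background. Jag1 and Dll1 depended on the arrays used. Without MBA-15 co-culture replicate 2 both missed the threshold, at -1.48 (adjusted p = 0.0603) and -0.81 (adjusted p = 0.0851), and without DA3 co-culture replicate 1 Dll1 missed it, at -0.70 (adjusted p = 0.0558), as it did with only the arrays of the 2 fractions (adjusted p = 0.0902). With DA3 alone in place of DA3 co-culture, a setting added after the data were seen, the difference was -0.94 for Jag1 (adjusted p = 0.0692) and -0.44 for Dll1 (adjusted p = 0.171).

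Among the target genes, Nrarp (probe set 10469936), an ankyrin-repeat protein that binds the Notch complex and limits its activity, showed the largest difference of the 10 genes. It read 5.77 and 5.43 in DA3 co-culture and 5.41 and 5.19 in DA3 alone, while the MBA-15 fraction read 3.23 and 3.61, which is in the range of background. The difference between the fractions was -2.18 ± 0.28 (limma, adjusted p = 0.00503), 4.52-fold and possibly understated for the same reason. It passed under all 19 other settings tried, with values from -2.36 to -1.88, and against DA3 alone it was -1.88. Hes1 (probe set 10434925), a repressor that many cells switch on after Notch cleavage, read 7.95 and 6.95 in the MBA-15 fraction, 6.42 and 8.03 in the DA3 fraction, and 7.16 and 6.88 for DA3 alone, so that both fractions held 1 high and 1 low array. The difference of 0.23 ± 0.54 did not pass (adjusted p = 0.815, 95% interval -1.06 to 1.52), and only 0.823% of all genes had a wider gap between the 2 DA3 co-culture arrays than the 1.61 of Hes1. Hey1 (probe set 10497203) ran from 4.22 to 5.00 over all arrays, with a difference of 0.25 ± 0.29 (adjusted p = 0.619). Heyl (probe set 10507840) ran from 3.74 to 4.35, under every array median, with -0.19 ± 0.16 (adjusted p = 0.494). Of the 4 targets only Nrarp passed, and the differences of Hes1, Hey1 and Heyl each changed sign under at least 1 other setting.

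**Figure D2:**
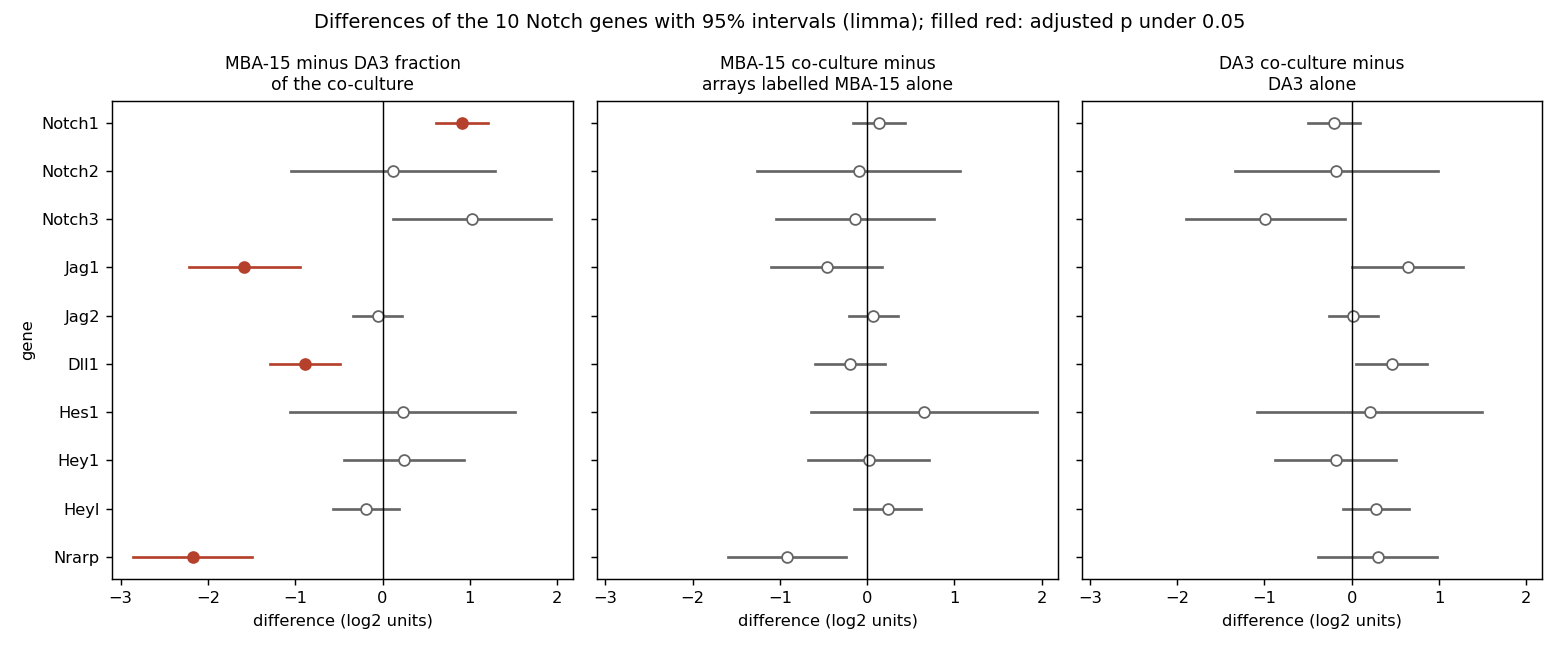
Difference in log2 units (x axis) of the 10 genes (y axis) in the 3 comparisons, with 95% intervals from limma, filled red where the adjusted p was under 0.05. Notch1 to the right and Jag1, Dll1 and Nrarp to the left pass in the panel of the co-culture fractions, and 0 genes pass in the other panels.

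The second comparison asked how the stromal line responds to carcinoma cells, as MBA-15 co-culture minus the group labelled MBA-15 alone. None of the 10 genes passed in limma (smallest adjusted p = 0.309), and 1 had an unadjusted p under 0.05, where 0.848% of all genes passed (0.0752% higher and 0.772% lower) and 9.8% had such a p. That gene was Nrarp, at 3.23 and 3.61 in co-culture and 3.95 and 4.73 on the arrays labelled alone, a difference of -0.92 ± 0.28 (limma, adjusted p = 0.309). Without array 2 labelled MBA-15 alone it was -0.53, and only that array of the 4 read above the guide to background. The arrays did not overlap for 7 of the 10 genes, with Notch1, Jag2, Hes1 and Heyl higher and Jag1, Dll1 and Nrarp lower in co-culture, where 22.3% and 16.1% of all genes did not overlap in these directions. Jag2, Heyl and Dll1 lay in the range of background on all 4 arrays. The guide genes themselves had array means of 3.87 to 3.93 in co-culture and 3.79 to 3.83 on the arrays labelled alone. Jag2 and Heyl differed in the same direction, by 0.07 and 0.23, and whether a shift of background has a part in this was not tested. Jag1 read 5.04 and 4.83 in co-culture against 5.09 and 5.70 labelled alone, a difference of -0.46 ± 0.27 (limma, adjusted p = 0.677). Hes1 read 7.95 and 6.95 against 6.74 and 6.86, a difference of 0.65 ± 0.54 (adjusted p = 0.775). Jag1 was -0.16 without array 2 labelled MBA-15 alone and -0.77 without array 1, and Hes1 was 0.15 without MBA-15 co-culture replicate 1 and 1.15 without replicate 2. The epithelial marker level also differs between these groups, and its part in these differences was not tested. On the linear scale from MBA-15 co-culture to DA3 alone, arrays 1 and 2 labelled MBA-15 alone stood at 16.4% and 54.6% for Nrarp, 12.0% and 74.1% for Jag1, 48.5% and 32.6% for Dll1 and 20.5% and 26.5% for Notch1, beside 43.6% and 59.3% for the epithelial markers. The other genes of the 10 stood outside the ends of this scale on both arrays, such as Hes1 at 142% and 124%. Mixing DA3 alone values into the co-culture arrays moves them towards DA3 alone by construction. The epithelial shares used lay above the positions of Nrarp and Notch1 on both arrays. At those shares the difference was 0.32 for Nrarp, 0.12 for Jag1, 0.05 for Dll1 and -0.18 for Notch1, all 4 with the sign turned, and 0.51 for Hes1. None of these passed in limma.

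The third comparison asked how the carcinoma line responds to stromal cells, as DA3 co-culture minus DA3 alone. Again 0 of the 10 genes passed in limma (smallest adjusted p = 0.302), and 3 had an unadjusted p under 0.05, where 0.0401% of all genes passed (0.01% higher and 0.0301% lower) and 14.9% had such a p. The 3 were Notch3, Jag1 and Dll1. Notch3 read 5.31 and 4.68 in co-culture and 5.67 and 6.31 alone, a difference of -0.99 ± 0.38 (limma, adjusted p = 0.31). Jag1 read 6.71 and 6.32 in co-culture and 6.11 and 5.65 alone, a difference of 0.64 ± 0.27 (limma, adjusted p = 0.333). Dll1 read 5.04 and 4.66 against 4.50 and 4.29, a difference of 0.46 ± 0.17 (limma, adjusted p = 0.302). In each of the 3 the co-culture arrays lay to 1 side of both arrays grown alone, as they also did for Heyl, Nrarp and Notch1, together 4 genes higher and 2 lower, where 31.4% and 22.4% of all genes did so. Heyl and the DA3 values of Notch1 lay in the range of background, and the guide genes had array means of 3.97 to 4.06 in co-culture and 3.83 to 3.89 alone. The Dll1 values of DA3 alone lay under their array medians and within the guide range over all arrays. They were above the guide genes of their own arrays, so the size of the Dll1 difference is uncertain. With 1 array left out in turn, the difference ran from -1.31 to -0.67 for Notch3, from 0.41 to 0.87 for Jag1 and from 0.27 to 0.65 for Dll1. Within assay number 3, which holds 1 array of each DA3 group, Notch3 was again lower in co-culture, and the differences were 1.06 for Jag1 and 0.75 for Dll1. Stromal markers were also higher in DA3 co-culture, and with MBA-15 co-culture values mixed into DA3 alone at their mean share of 12.8% the differences of Jag1 and Dll1 were 0.73 and 0.50 (limma, adjusted p = 0.295 and 0.264), that of Notch3 had an adjusted p of 0.303, and Nrarp stood at 0.44 and Notch1 at -0.31. Notch2 differed by -0.18 ± 0.49 and Hes1 by 0.20 ± 0.54, both with 1 co-culture array above and 1 below the arrays grown alone.

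Over the 4 groups, the order of the levels was the same for Jag1, Dll1 and Nrarp: highest in DA3 co-culture, then in DA3 alone, then in the group labelled MBA-15 alone, with the lowest levels in the MBA-15 fraction. Neighbours in this order did not overlap for Dll1 and Nrarp, while for Jag1 the arrays of DA3 alone and labelled MBA-15 alone overlapped. For Nrarp the nearest arrays of DA3 co-culture and DA3 alone read 5.43 and 5.41. That margin is far under the replicate gaps of 0.34 and 0.22 in these groups. Notch1 ran in the reverse order, again with no overlap between neighbours. All 4 DA3 arrays of Notch1 and all 4 MBA-15 arrays of Dll1 lay within the range of the guide to background, so the order among those arrays has no reading as expression. Nrarp on the MBA-15 arrays was also not above that range, except for array 2 labelled MBA-15 alone at 4.73. For these 4 genes the arrays as labelled lay in opposite directions with co-culture in the 2 lines, which 3.32% of all genes did. With the epithelial share mixed into MBA-15 co-culture, the MBA-15 changes were 0.32, 0.12, 0.05 and -0.18 for Nrarp, Jag1, Dll1 and Notch1. The DA3 changes were 0.30, 0.64, 0.46 and -0.20. Mixing shifts the MBA-15 values towards DA3 by construction, and the cause of the opposite directions was not tested. The test of the difference between the responses passed for 0 of the 10 genes in limma (smallest adjusted p = 0.619), where 0.0602% of all genes passed, and 3 of the 10 had an unadjusted p under 0.05, as did 6.32% of all genes. The difference of the responses, MBA-15 minus DA3, was -1.22 ± 0.40 for Nrarp, -1.10 ± 0.38 for Jag1, -0.65 ± 0.24 for Dll1 and 0.34 ± 0.17 for Notch1.

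The other genes of the pathway that were measured, 45 in all, were read in the same fits. Between the fractions, 2 were higher and 2 lower in MBA-15, 4 of 45 where 12.8% of all genes passed, and the list's median difference was -0.03. Poglut1, which adds glucose to the Notch ectodomain, was the highest in MBA-15, at 8.10 and 8.71 against 6.99 and 6.89 in DA3 co-culture (1.47 ± 0.26, limma, adjusted p = 0.0153). The gamma-secretase complex did not move as a unit: the subunit Ncstn was higher in MBA-15 (0.72 ± 0.18, adjusted p = 0.0479), and the subunit Aph1b was lower (-1.37 ± 0.28, adjusted p = 0.0256). Aph1b has a close copy in the mouse genome, so its probe set may read both. Neurl1b, a ubiquitin ligase that acts on Notch ligands, was lower in MBA-15, at 4.09 and 4.37 against 6.30 and 5.68 (-1.76 ± 0.36, adjusted p = 0.0241). The call of Ncstn held in 4 of 19 other settings, that of Aph1b in 13 and those of Poglut1 and Neurl1b in 15 each.

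Against the arrays labelled MBA-15 alone, Aph1b was the 1 of 45 genes to pass (-1.98 ± 0.28, limma, adjusted p = 0.0384), from 5.50 and 6.26 to 4.11 and 3.69. With the DA3 share mixed in, its difference was -0.18. The call was also lost when either array of MBA-15 co-culture, array 2 labelled MBA-15 alone or either array of DA3 alone was left out, with differences from -2.19 to -1.60, with the replicate number as a block (adjusted p = 0.0689), with the assay number as a fixed block (0.0752), after quantile normalization (0.0554) and with only the arrays compared (0.165). In DA3 co-culture 0 of 45 passed in limma and 6 had an unadjusted p under 0.05, where 14.9% of all genes did, with Neurl1b at -1.66 ± 0.36 (adjusted p = 0.179) and Aph1b at -1.17 ± 0.28 (adjusted p = 0.199) the widest apart. For the difference of the responses 0 of 45 passed and 0 had an unadjusted p under 0.05, with Ep300, a histone acetyltransferase of the Notch complex, at 1.03 (adjusted p = 0.999) and Aph1b at -0.81 (adjusted p = 0.869). None of the 6 other target genes, Hes2, Hes3, Hes5, Hes6, Hes7 and Hey2, passed in any of the 4 comparisons.

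**Figure D3:**
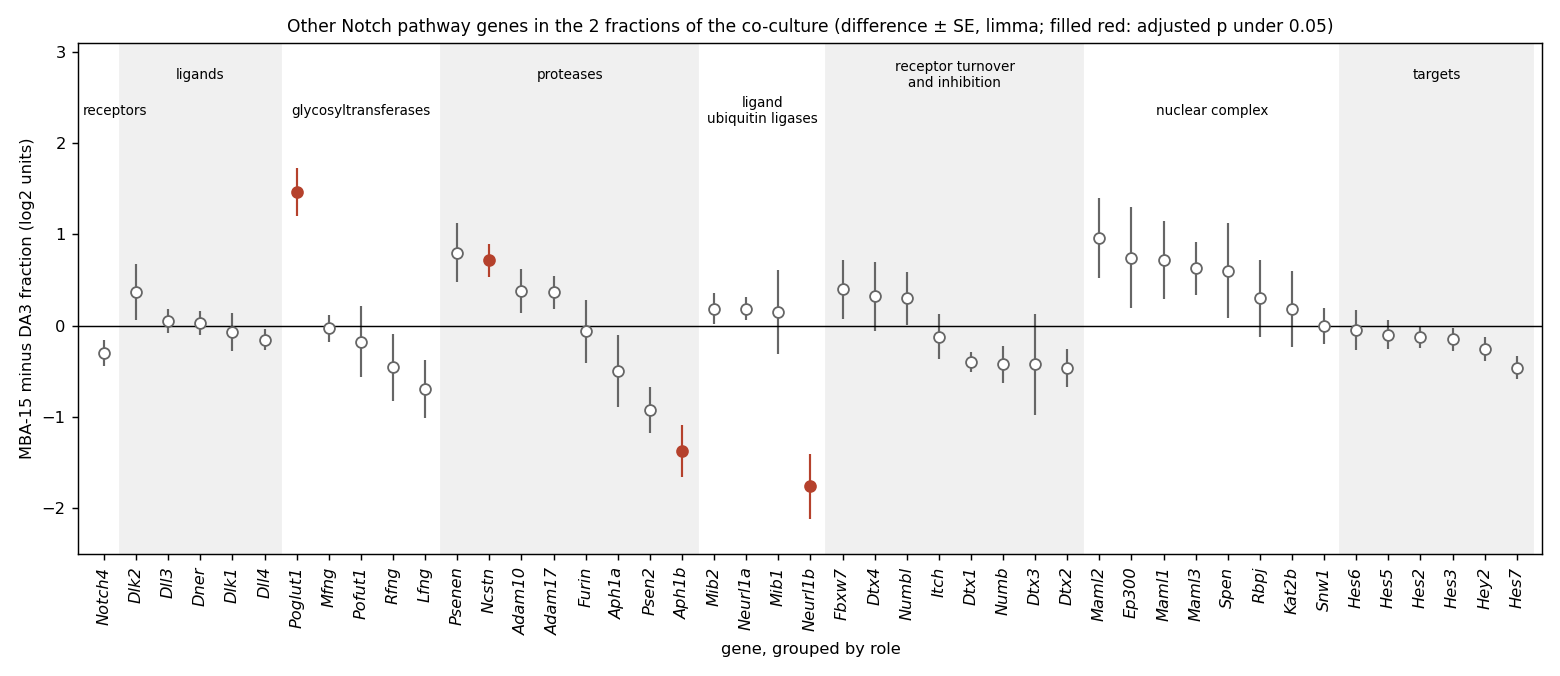
Difference between the fractions of the co-culture in log2 units (y axis, MBA-15 minus DA3, ± SE from limma) for the 45 other measured pathway genes, grouped by role on the x axis and filled red where the adjusted p was under 0.05. Poglut1 and Ncstn lie above 0 and Aph1b and Neurl1b below.

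The 3 genes with the widest range of group means were set against named genes with a range at least 0.75 as wide, by Pearson's r over the 8 arrays, as a description. Genes with predicted, clone-like, olfactory receptor or microRNA names were passed over and are not in the counts. For Nrarp, with a range of 2.18, Morc4 (r = 0.991), Ttc9 (0.989) and Fermt1 (0.984) were most alike of 1345 genes. For Jag1, with a range of 1.58, they were Anxa11 (0.978), Bcar3 (0.976) and Meis1 (0.968) of 2492 genes. For Notch3, with a range of 1.17, they were Tcf4 (0.975), Fbxl20 (0.970) and Itpr2 (0.961) of 4185. An r above 0.95 was reached by 40, 15 and 9 genes, and the 8 points share 2 cell lines and 4 groups.

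**Figure D4:**
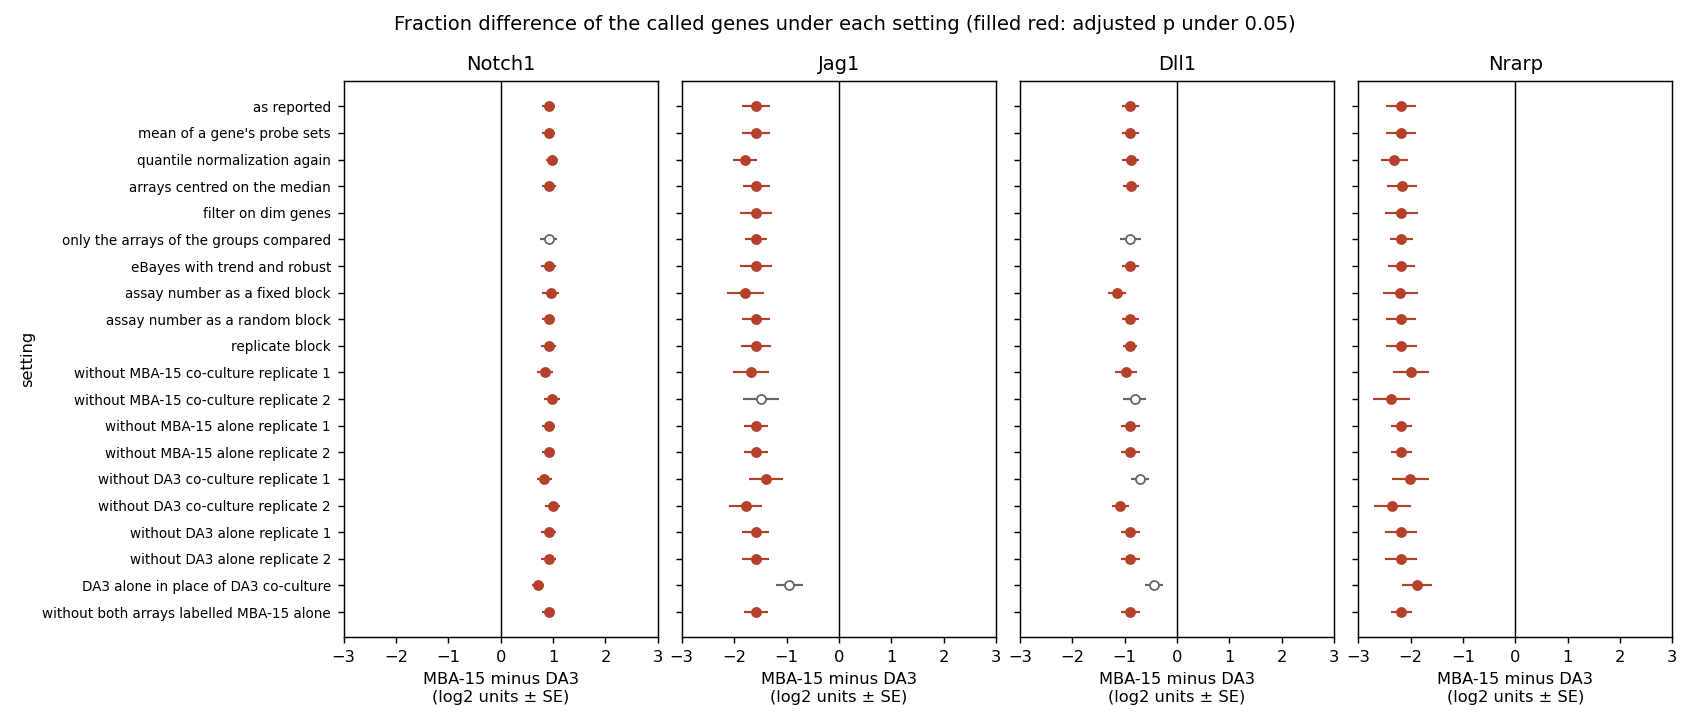
Difference between the fractions of the co-culture in log2 units (x axis, MBA-15 minus DA3, ± SE) for Notch1, Jag1, Dll1 and Nrarp under each setting (y axis), filled red where the adjusted p was under 0.05. Every value stays on its side of 0, Nrarp is filled in every row, and Notch1 and Dll1 have no value under the filter on dim genes, which removed them.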

How the data were processed

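Per the submitters' processing notes the authors made the deposited log2 values with RMA and Partek 6.5, with no parameters given, and their scale was read from their range. A value is relative to the other probe sets of its array. The platform annotation gave a single gene symbol for 21789 of the 35556 probe sets, and the probe set with the highest mean was kept for each of 19938 genes. Groups and replicate numbers came from the titles and assay numbers (3, 4 and 5, meaning not given) from the descriptions. All 8 arrays were fitted together with limma 3.58.1 in R 4.3.3 (4 residual and 2.6 prior degrees of freedom), two-sided, with Benjamini-Hochberg adjustment over all genes. Errors are standard errors from limma. The number of arrays limits the precision. In data simulated for the comparison of the fractions over 19938 genes, 0 of 50 changes of 0.5 log2 units, 13 of 50 of 1, 44 of 50 of 2 and 50 of 50 of 4 were recovered, with 8 false calls. Far fewer genes were changed there than passed in the data, which makes the adjustment stricter, so these counts may understate recovery. The members, the gene lists and the tests were chosen with earlier results of these data known. All 10 members are named, with the other pathway genes that passed in a comparison or else the 2 with the largest difference. Promoter sequences are from RefSeq.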

Additional observations from a re-analysis of the deposited data

Results flagged for a closer look

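In 4 of the 10 genes both co-culture arrays moved 1 way against both arrays labelled alone in MBA-15 and the other way in DA3. The difference of the responses, MBA-15 minus DA3, was 0.34 for Notch1, -1.10 for Jag1, -0.65 for Dll1 and -1.22 for Nrarp. It was tested in limma and passed for 0 of them, with adjusted p = 0.881, 0.637, 0.705 and 0.619 and unadjusted p = 0.0966, 0.0232, 0.0306 and 0.0204. Of all genes 3.32% showed such a pattern of arrays. The MBA-15 side of each difference rests on the arrays labelled MBA-15 alone, whose epithelial markers stood 43.6% and 59.3% of the way from MBA-15 co-culture to DA3 alone. With DA3 alone values mixed into MBA-15 co-culture at those shares, the MBA-15 changes were -0.18 for Notch1, 0.12 for Jag1, 0.05 for Dll1 and 0.32 for Nrarp. The DA3 changes were -0.20, 0.64, 0.46 and 0.30. Mixing shifts the MBA-15 values towards DA3 by construction, and the cause of the opposite directions was not tested. All 4 DA3 values of Notch1 and all 4 MBA-15 values of Dll1 lay in the range of background. Nrarp on the MBA-15 arrays was above that range only on array 2 labelled MBA-15 alone.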

How the results depend on the processing

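The 4 differences of Notch genes called between the fractions kept their direction under all settings that gave them a value. The number of genes among the 10 called there was 2 with a filter on dim genes, which removed Notch1 and Dll1, 2 with only the arrays of the 2 fractions, 2 with DA3 alone in place of DA3 co-culture (chosen after seeing the data, as was leaving out both arrays labelled MBA-15 alone, which kept 4), and 2 to 4 with 1 array left out. Of 36 differences that were not called, 21 changed sign under some setting, and 0 passed under any setting that kept 2 arrays per group. For the MBA-15 changes of Notch1, Jag1, Dll1 and Nrarp, the only setting that turned the sign was the DA3 share mixed in. That setting shifts values towards DA3 by construction. Over all genes, the fractions gave 2545 calls, 1123 with only the arrays compared and 1642 to 2229 with 1 array left out. The MBA-15 response gave 169, 28 with only the arrays compared, 334 with a trended and robust prior, 0 with the DA3 share mixed in and 13 to 198 with 1 array left out. The DA3 response gave 8, 56 with the filter on dim genes, 0 with only the arrays compared, 134 with the trended prior, 0 with the assay number as a fixed block, 4 with the MBA-15 share mixed in and 0 to 3 with 1 array left out. The difference of the responses gave 12, 29 with quantile normalization, 40 with the filter, 44 with the trended prior, 0 with the assay block and 0 to 8 with 1 array left out. A group left with 1 array is assumed to vary like the others. With the replicate number as a block the DA3 response gave 3 calls and the difference of the responses 0, and 4, 0, 0 and 0 of the 10 Notch genes passed in the 4 comparisons. The numbers share no stated culture, and same-numbered arrays deviated together with a correlation of 0.01 in MBA-15, 0.03 in DA3 and 0.31 between the fractions. Apart from settings that by construction test fewer genes or arrays, the cause of these shifts was not tested. Levels near or under the array medians limit Notch1, Jag2, Dll1, Hey1 and Heyl, and Nrarp on the MBA-15 arrays.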
